A study of Mus musculus with 2 samples.

Results

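The neuregulins and the ErbB receptors were followed across the nuclei of mouse cerebral cortex. The set holds 7 genes of the 30905 in the deposited matrix, picked by symbol alone: the ligand genes Nrg1, Nrg2 and Nrg3 and the receptor genes Egfr, Erbb2, Erbb3 and Erbb4. All 7 were found. Nuclei of frozen cortices from wild-type C57BL/6 mice were sequenced in droplets (10x Genomics Chromium), and molecules were counted by unique molecular identifiers (UMIs). The 2 samples, 1 at an age of 18 months and 1 at 2 months, each pooled 3 mice that received no treatment, while the series text gives age ranges of 18 to 22 and 2 to 3 months. Both samples lie in 1 matrix whose barcodes carry the suffix 1 or 2, here library 1 and library 2. Which suffix belongs to which age is not stated, so ages were not compared, and library values stand side by side with no replicate and no test.

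Neuregulins are EGF-like growth factors that are made mostly as membrane proteins and released or exposed by proteases. As a family they bind ErbB3 and ErbB4, with Nrg3 known as an ErbB4 ligand. ErbB2 binds no known ligand and acts as the partner of the other receptors, ErbB3 has little kinase activity of its own and signals through such a partner, and EGFR (ErbB1) binds EGF, TGF-alpha and related ligands rather than neuregulins. In cortex the pathway is best known for ErbB4 in interneurons, where it shapes the synapses they receive and make, and for neuregulin signalling to the oligodendrocyte lineage.

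The libraries held 8914 and 8587 barcodes with a median of 5992 and 6450 UMIs, and 8286 and 7954 nuclei passed the filters, of which 616 and 792 took no class name. A class name below stands for nuclei that resemble that cell type by its markers. Of the 10 classes compared (50 or more nuclei per library), 9 had 7 or more of their 8 to 10 markers at the highest level there, whereas excitatory neurons had 4 of 8. Although the tissue is labelled cerebral cortex, some nuclei carried markers of striatal projection neurons (395 and 232 nuclei), dentate granule cells (359 and 208) and hippocampal pyramidal cells (115 and 104). A further 486 nuclei, with Fibcd1 among their leading genes, scored highest for hippocampal CA markers but took no subtype name. Of all barcodes, 19 sequences occurred in both libraries. The libraries also stood apart in one kind of gene: in excitatory neurons, 52.3% of antisense-annotated genes were over 1.5 times higher in library 2 with intervals apart, against 5.68% of protein-coding genes. Levels are given as counts per 1000000 UMIs of the class (CPM), first for library 1 and then for library 2, and intervals are exact 95% Poisson intervals that cover counting error only.

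The members differed widely in how many molecules they gave. Among kept nuclei Nrg3 had 290569 and 364131 UMIs, Nrg1 189014 and 217128, Erbb4 60814 and 59884, Nrg2 11332 and 11884, and Egfr 1579 and 1846. Erbb3 had 163 and 126 and Erbb2 32 and 25. The 3 genes with the most molecules were also the 3 longest. In mm10 coordinates of GENCODE vM21, Nrg1 spans chr8:31814551-32884029, Nrg3 spans chr14:38368952-39473088 and Erbb4 spans chr1:68032186-69108059, all on the minus strand and each over 1 Mb. Nrg2 spans chr18:36017652-36197380 and Erbb3 chr10:128567523-128589652 on the minus strand. Egfr spans chr11:16752203-16918158 and Erbb2 chr11:98412470-98437716 on the plus strand. Whether intronic reads were counted is not given in the sources used here, so levels of different genes were compared only per 100 kb of gene span.

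For 6 of the 7 members the class with the highest level was the same in both libraries. Nrg1 and Nrg2 were highest in striatal projection neurons, Nrg3 in excitatory neurons, Erbb4 in inhibitory neurons, Erbb3 in oligodendrocytes and Egfr in fibroblasts. Erbb2 led in endothelial nuclei of library 1 and in astrocytes of library 2. As a background, the share of all genes with at least 20 UMIs that peaked in the same class was 5.81% and 5.46% for striatal projection neurons, 4.72% and 4.06% for excitatory neurons, 6.47% and 5.44% for inhibitory neurons, 8.27% and 8.62% for oligodendrocytes, and 14.6% in each library for fibroblasts. For endothelial nuclei it was 15.1% and 12.9%, and for astrocytes 8.27% and 8.69%.

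**Figure D1:**
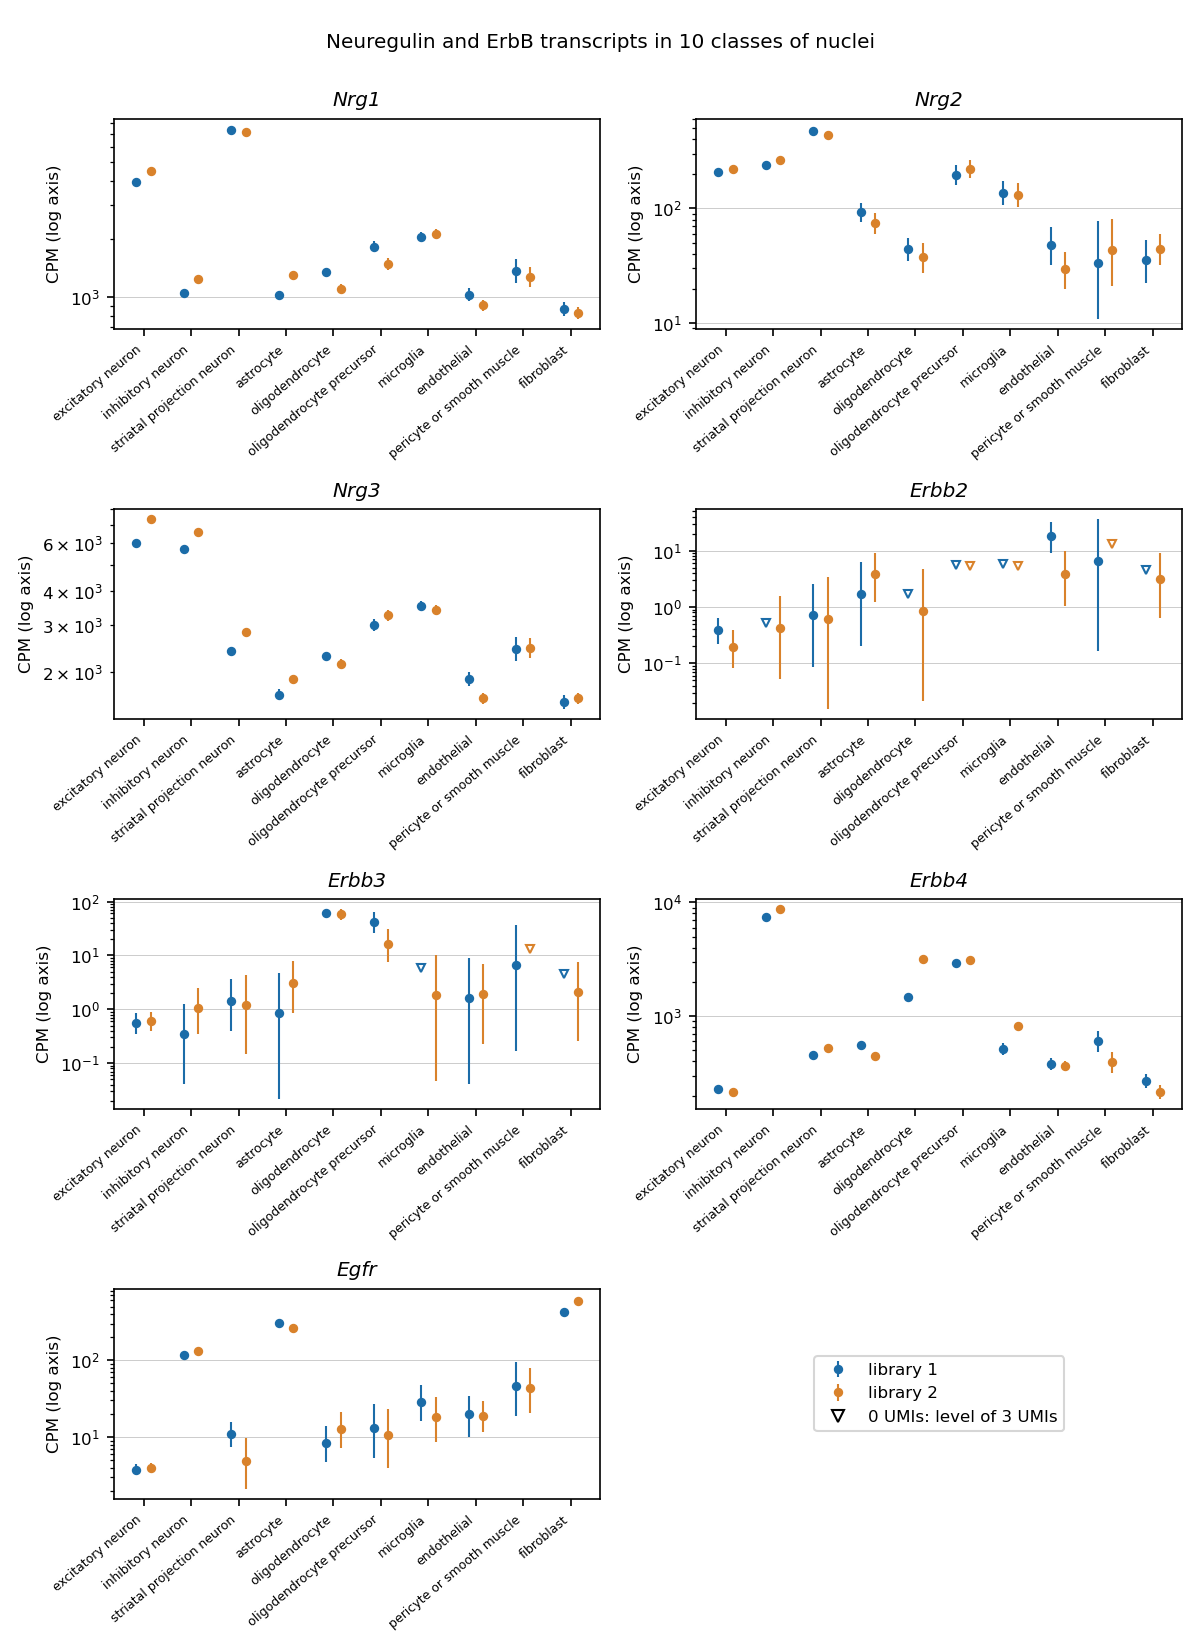
Levels of the 7 genes in 10 classes of nuclei. Each panel is 1 gene, points are CPM on a log axis with 95% Poisson intervals, colours are the libraries, and an open triangle marks a class with 0 UMIs at the level that 3 UMIs would give. Nrg1 and Nrg2 peak in striatal projection neurons, Nrg3 in excitatory neurons, Erbb4 in inhibitory neurons, Erbb3 in oligodendrocytes and Egfr in fibroblasts, in both libraries.

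Nrg1, whose isoforms range from secreted forms to a membrane-bound form that drives myelination in peripheral nerve, was highest in projection neurons. Striatal projection neurons held 7364 CPM (7263 to 7466) in library 1 and 7187 CPM (7058 to 7318) in library 2. Excitatory neurons held 3932 and 4478 CPM, and inhibitory neurons only 1049 and 1238 CPM. These neuron classes were in the same order in both libraries and their intervals did not overlap.

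Within excitatory neurons the level of Nrg1 varied widely. It was highest in the Rorb-marked middle-layer subtype at 5916 and 6475 CPM, then in deep-layer intratelencephalic neurons at 5202 and 5954 CPM and in Cux2-marked upper-layer neurons at 4497 and 4833 CPM. Layer 6 corticothalamic neurons held 4316 and 4771 CPM and layer 6b neurons 4195 and 4294 CPM. Layer 5 extratelencephalic neurons stood lower at 1628 and 2524 CPM, as did near-projecting neurons at 2135 and 2599 CPM. Dentate granule cells held 1830.3 and 927 CPM, above layer 5 extratelencephalic neurons in library 1 and below them in library 2. Pyramidal cells of the hippocampal CA fields were the lowest of the named subtypes at 513 and 631 CPM. The CA name covers subcluster 15 alone. Subcluster 6, with 263 and 223 nuclei and Fibcd1 among its leading genes, also scored highest for CA markers, at 0.678. It took no name because its score had no lead over that of layer 5 extratelencephalic neurons, and it held 1278 and 1469 CPM of Nrg1. One unnamed group of excitatory nuclei, led by Fam163a, Pappa, Tshz2 and the glutamate transporter gene Slc17a6, exceeded every named excitatory subtype at 7479 and 8602 CPM (86 and 110 nuclei).

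The interneuron subtypes were close together for Nrg1. Vip interneurons held 1312 and 1369 CPM, Lamp5 or Ndnf interneurons 1092 and 1576 CPM, Sst interneurons 825 and 1314 CPM and Pvalb interneurons 1111 and 1013 CPM. Each of these levels was below that of microglia in the same library, 2052 and 2113 CPM. The part of free RNA from other cells in these levels was not tested. The order of the interneuron subtypes was not the same in the 2 libraries. The Drd1 and Drd2 types of striatal projection neuron, which carry the dopamine receptors of the direct and indirect pathways, held 8023 and 7059.5 CPM and 7518 and 7773 CPM, and here too the order changed between libraries. Both types were made of largely separate subclusters in the libraries, with 127 of 160 Drd1 nuclei of library 1 in subcluster 0 and 79 of 116 of library 2 in subcluster 2.

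Nrg2, a less studied paralogue, had a level in striatal projection neurons of 471 CPM (446 to 497) in library 1 and 438 CPM (407 to 471) in library 2. Inhibitory neurons came next at 237 and 262 CPM, with excitatory neurons at 208 and 222 CPM and oligodendrocyte precursors at 196 and 219.7 CPM. The intervals of excitatory neurons and precursors overlapped in both libraries.

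By subtype, Nrg2 was shared out differently from Nrg1. The top group held 4 subtypes with overlapping intervals between neighbours: dentate granule cells at 439.6 and 501 CPM, the Drd2 type at 483 and 453 CPM, the Drd1 type at 446 and 431 CPM and Lamp5 or Ndnf interneurons at 371 and 451 CPM. Of the other 10 subtypes apart from CA neurons, Pvalb interneurons at 254 and 272 CPM and near-projecting neurons at 249 and 279 CPM were the highest and layer 5 extratelencephalic neurons at 129 and 137 CPM the lowest. Hippocampal CA neurons, subcluster 15, were the lowest named subtype at 45.8 and 41.6 CPM, and the unnamed subcluster 6 held 73.9 and 85.2 CPM. Dentate granule cells thus stood in the top group for Nrg2 and in the lower part of the order for Nrg1.

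Nrg3, an ErbB4 ligand known mainly from brain, was high in both cortical neuron classes and low in striatal ones. Excitatory neurons held 6029.7 CPM (6005 to 6054) in library 1 and 7375 CPM (7349 to 7401) in library 2. Inhibitory neurons held 5718 and 6626 CPM, slightly less in each library with intervals apart, and striatal projection neurons 2391 and 2804 CPM. Microglia held more than the striatal class, at 3513 and 3395 CPM. The part of free RNA from other cells in the striatal level was not tested. Per 100 kb of span, excitatory neurons held 546 and 668 CPM of Nrg3 and 368 and 419 CPM of Nrg1, whereas striatal projection neurons held 217 and 254 CPM of Nrg3 and 689 and 672 CPM of Nrg1.

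Of the named subtypes, near-projecting neurons had the highest level of Nrg3, 8789 CPM (8547 to 9037) in library 1 and 10296 CPM (10064 to 10533) in library 2. Layer 6b neurons followed at 7365 and 9235 CPM and Vip interneurons at 7476 and 8059.7 CPM. The Vip level averaged unlike nuclei. Subcluster 14, with 16 and 13 nuclei and Nrg3, Nrg3os and Gm20642 among its leading genes, held 29650.0 and 29376 CPM, while Vip subclusters 1 and 7 held 5901 and 5702 CPM and 4993 and 4784 CPM. Layer 6 corticothalamic neurons held 6490.0 and 8605 CPM, hippocampal CA neurons 6453 and 8051 CPM, Sst interneurons 6346 and 7378 CPM and the Rorb-marked subtype 6308 and 7664 CPM. The next 5 subtypes lay close to each other. Deep-layer intratelencephalic neurons held 6056 and 7376 CPM, layer 5 extratelencephalic neurons 5884 and 7151 CPM, Cux2-marked neurons 5833 and 6771 CPM, Pvalb interneurons 5464 and 6566 CPM and dentate granule cells 5194 and 6287 CPM. At the bottom were Lamp5 or Ndnf interneurons at 4487 and 5191 CPM, the Drd1 type at 2735 and 3304 CPM and the Drd2 type at 1672 and 1853 CPM, in this order and with intervals apart in both libraries. The Drd1 type was not uniform either: its subcluster 6, with 18 and 21 nuclei, held 5787 and 6044 CPM, above the Lamp5 or Ndnf level, and its subcluster 9 held 1695 and 2611 CPM. CA neurons of subcluster 15, lowest of the named subtypes for Nrg1 and Nrg2, were in the upper part of the order for Nrg3, and the unnamed subcluster 6 held 5676 and 7045 CPM. The near-projecting name likewise covers subcluster 18 alone. Subcluster 20, with Vwc2l and Tshz2 among its leading genes, also scored highest for near-projecting markers. It took no name because its score had no lead, and its Nrg3 level is not given here.

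The matrix also counts 3 antisense genes that overlap Nrg3. In excitatory neurons Nrg3os stood at 103 and 359.7 CPM, Gm20642 at 59.7 and 316 CPM and Gm20641 at 3.78 and 20.7 CPM. All 3 were higher in library 2, and Nrg3 itself was 1.22 (1.22 to 1.23) times its library 1 level there. Whether the counting used strand is not given in the sources used here, so reads of Nrg3 and of these genes may not be told apart.

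**Figure D2:**
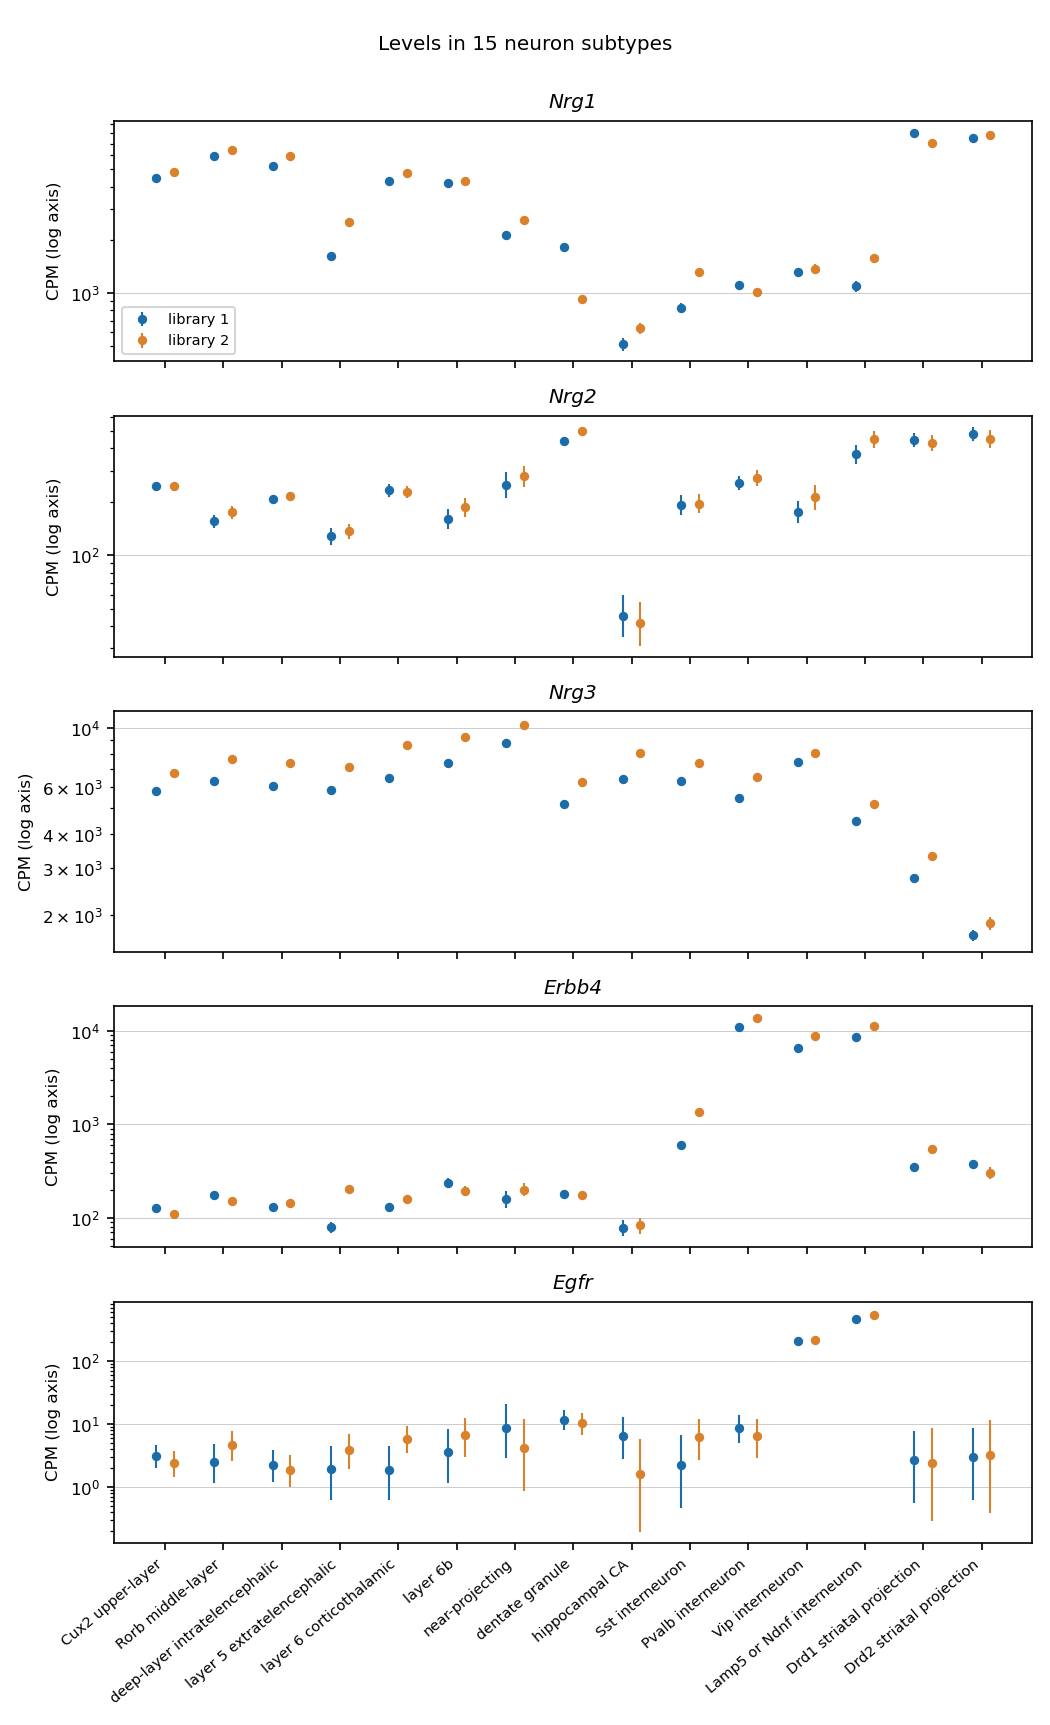
Levels of Nrg1, Nrg2, Nrg3, Erbb4 and Egfr in 15 neuron subtypes, as CPM on a log axis with 95% Poisson intervals, colours for the libraries. Nrg3 is lowest in the striatal types where Nrg1 is highest, Erbb4 is high in Pvalb, Lamp5 or Ndnf and Vip interneurons, and Egfr is over 200 CPM in the latter 2 subtypes and at most 11.7 CPM in the others.

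UMIs of the 3 ligand genes were also found in every class outside neurons. Microglia held 2052 and 2113 CPM of Nrg1 and 3513 and 3395 CPM of Nrg3, and oligodendrocyte precursors 1823 and 1480.0 CPM of Nrg1 and 2983 and 3246 CPM of Nrg3. Fibroblasts were the lowest at 869 and 824 CPM of Nrg1 and 1554 and 1598 CPM of Nrg3. Their intervals overlapped those of endothelial nuclei in library 2 for both genes and those of astrocytes in library 1 for Nrg3. The other classes lay between these, with Nrg1 at 1017 and 1292 CPM in astrocytes, 1353 and 1105 CPM in oligodendrocytes, 1368 and 1271 CPM in pericytes or smooth muscle and 1027 and 905 CPM in endothelial nuclei. Nrg3 held 1650.5 and 1879 CPM in astrocytes, 2300.1 and 2151 CPM in oligodendrocytes, 2436 and 2454 CPM in pericytes or smooth muscle and 1888 and 1599.8 CPM in endothelial nuclei. The order of these classes was similar for the 2 ligands.

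Free RNA in droplets puts neuronal transcripts into other nuclei, so each gene's level outside neurons was divided by its level in excitatory neurons and set beside the same ratio of 10 neuronal transcripts (among them Kcnip4, Rbfox1, Meg3, Snap25, Syt1 and Rbfox3). In microglia the ratio of Nrg1 was 0.522 and 0.472 and that of Nrg3 0.583 and 0.460, where the 10 transcripts had medians of 0.554 and 0.465. For endothelial nuclei the ratios were 0.261 and 0.202 for Nrg1 and 0.313 and 0.217 for Nrg3, beside medians of 0.260 and 0.215. In oligodendrocytes they were 0.344 and 0.247 for Nrg1 and 0.381 and 0.292 for Nrg3, beside medians of 0.335 and 0.242. In all 7 classes outside neurons, Nrg1 and Nrg3 lay between the lowest and the highest of the 10 transcripts in both libraries, and the interval of Nrg2 reached into that range. Levels of Nrg1 and Nrg3 in these classes thus cannot be told apart from neuronal free RNA by this measure. In oligodendrocyte precursors the ratio of Nrg2 was 0.942 and 0.990, above the medians of 0.427 and 0.399 and within the range of the 10 transcripts.

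**Figure D3:**
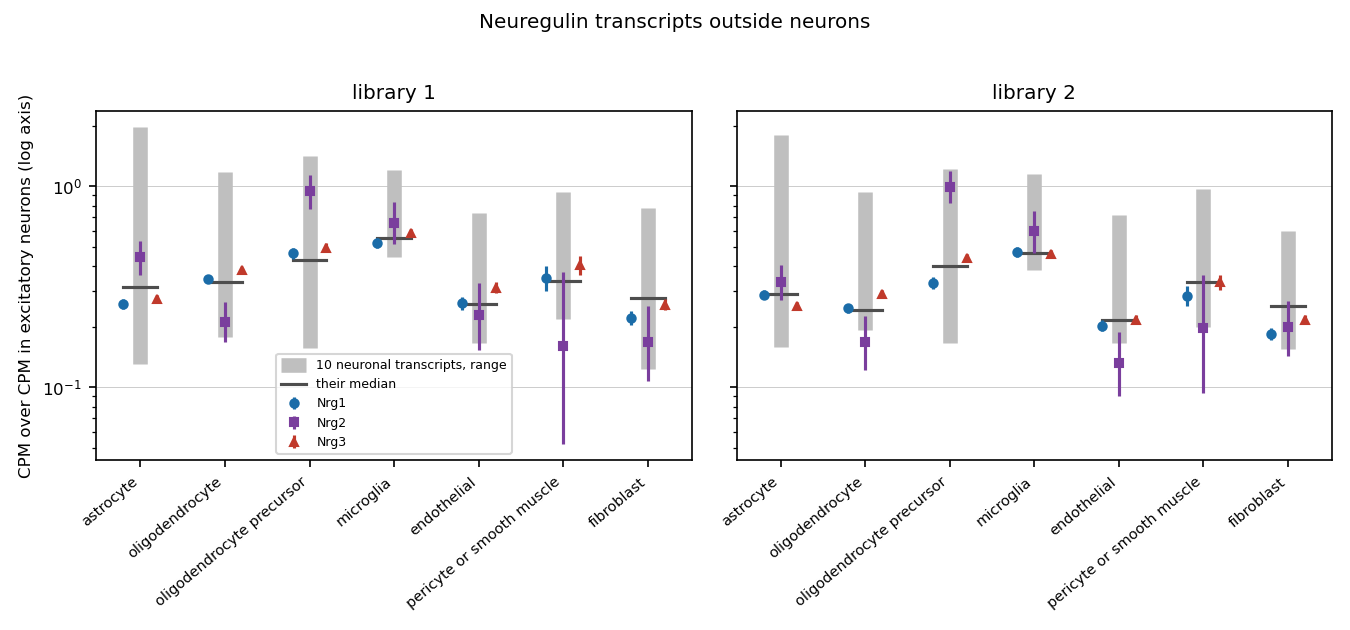
Ratio of the level in a class outside neurons to the level in excitatory neurons, on a log axis, for Nrg1, Nrg2 and Nrg3 with 95% intervals, 1 panel per library. Grey bars span the same ratio for 10 neuronal transcripts and the dark line is their median: Nrg1 and Nrg3 lie inside the bars in all 7 classes, and Nrg2 lies inside or has an interval that reaches the bar.

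Erbb4, the neuregulin receptor with an active kinase of its own, was concentrated in inhibitory neurons, at 7497 CPM (7427 to 7568) in library 1 and 8756 CPM (8671 to 8841) in library 2. Oligodendrocyte precursors held 2945 and 3100.3 CPM and oligodendrocytes 1486 and 3182 CPM. All other compared classes were below 1000 CPM, with microglia at 514 and 815, astrocytes at 557 and 449.6, pericytes or smooth muscle at 601 and 396 and striatal projection neurons at 452 and 529. Endothelial nuclei held 381 and 366 CPM and fibroblasts 270.4 and 215 CPM. Excitatory neurons, by far the most numerous class, were at the bottom with 229 and 214 CPM, and their intervals overlapped those of fibroblasts in both libraries.

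Inhibitory neurons did not carry Erbb4 evenly. Pvalb interneurons, the fast-spiking type, held 11114 CPM (10962 to 11266) in library 1 and 13810.4 CPM (13616 to 14006) in library 2. Lamp5 or Ndnf interneurons held 8695 and 11179 CPM and Vip interneurons 6619.6 and 8930.0 CPM. Sst interneurons were far lower at 603 CPM (562 to 646) in library 1 and 1349.5 CPM (1287 to 1414) in library 2. These 4 subtypes had the same order in both libraries, with no overlap of neighbouring intervals. The Pvalb nuclei came from largely separate subclusters in the libraries, numbers 3, 6 and 15 for library 1 and numbers 2 and 12 for library 2. Those with 10 or more nuclei ranged from 9242 to 11858 CPM in library 1 and from 10367 to 14903 CPM in library 2.

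Counting nuclei gave the same picture as counting molecules. After each nucleus was thinned to 1500 UMIs, Erbb4 was seen in 100% and 100% of Pvalb, 98.1% and 100% of Lamp5 or Ndnf and 99.3% and 98.2% of Vip interneurons. It was seen in 50% and 58.9% of Sst interneurons and, as a base level, in 20.5% and 20.7% of excitatory neurons. Unthinned, the shares were 78.7% and 89.4% in Sst interneurons and 59.9% and 64.3% in excitatory neurons, where median depths were 7785 and 8332 UMIs. The median nucleus held 11009.5 and 13489 CPM among Pvalb interneurons and 279.6 and 500.1 CPM among Sst interneurons.

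The level of Sst interneurons depended on which nuclei were given that name. Within the subtype, the subcluster led by Hpse, Tnni3k and Pdyn (number 0) held 688 and 562 CPM. The subcluster led by Npsr1 and with Sst among its leading genes (number 8, 27 and 50 nuclei) held 718 and 2461 CPM. The small subclusters 10 and 16 held 209 and 450.3 CPM and 453 and 1113 CPM, so that 3 of the 4 were higher in library 2. A further subcluster led by Corin and Pard3b (number 5, 54 and 44 nuclei) matched Sst markers best but fell short of the score for a name, and it held 9092 CPM (8826 to 9365) in library 1 and 7844 CPM (7544 to 8152) in library 2. Without that score limit the level of Sst interneurons was 2879 and 2665 CPM, and with doublets kept it was 2833 and 2462 CPM. With a doublet limit of 0.15 library 2 stood at 904 CPM, and with no mitochondrial limit at 803 CPM. Under each of these 4 settings the Sst level was below the Pvalb level in both libraries.

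**Figure D4:**
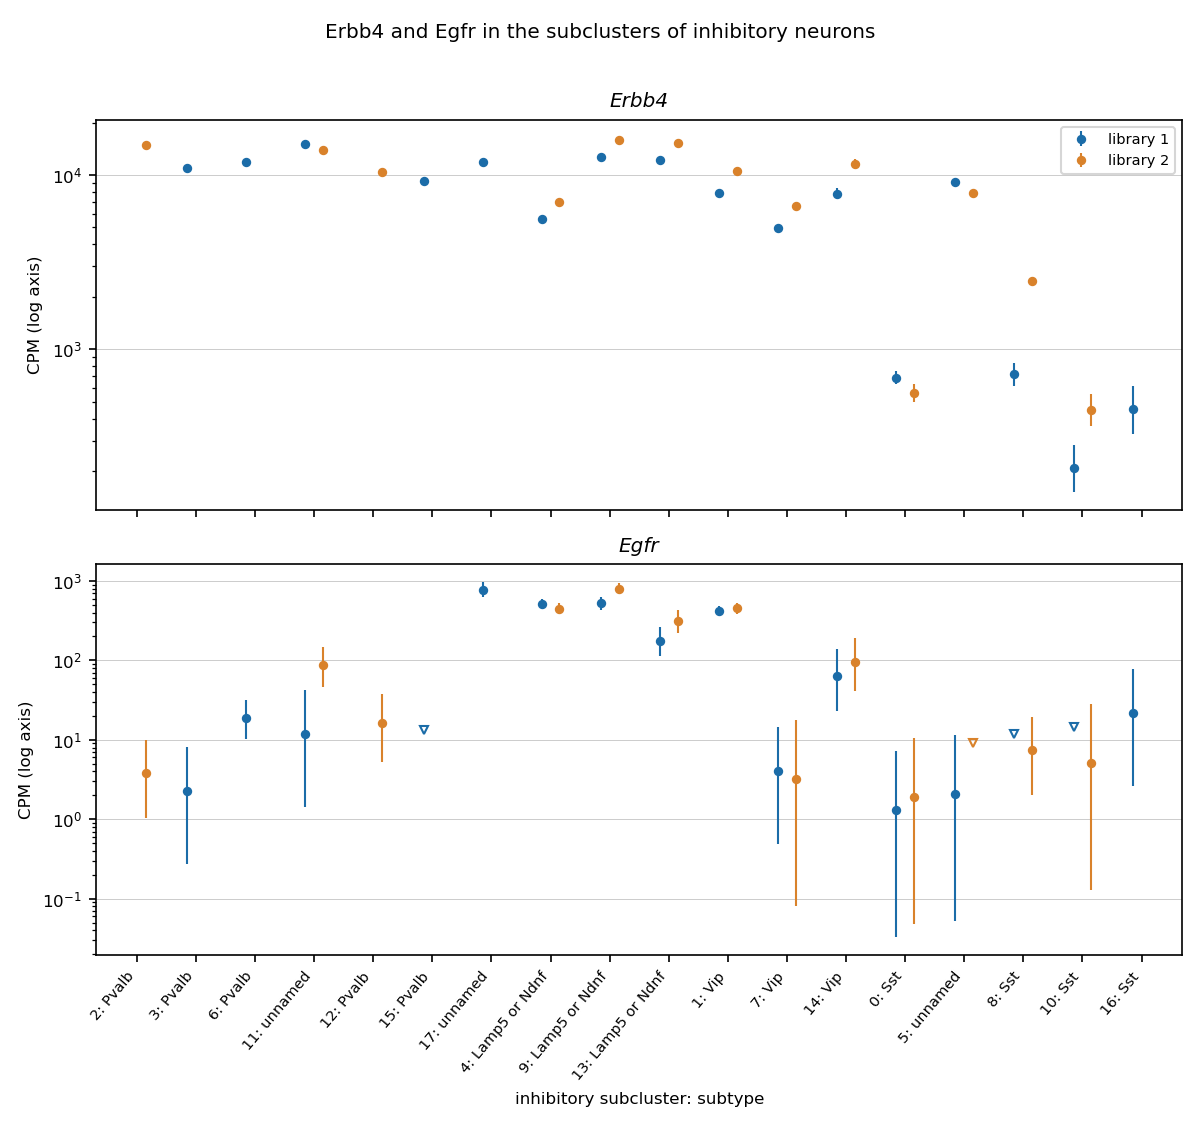
Erbb4 (top) and Egfr (bottom) in the subclusters of inhibitory neurons with at least 10 nuclei in the library, as CPM on a log axis with 95% Poisson intervals. Numbers are subclusters, names are their subtypes, and an open triangle marks 0 UMIs at the level that 3 UMIs would give. Sst subclusters 0, 8, 10 and 16 stay under 2500 CPM of Erbb4, unnamed subcluster 5 does not, and Egfr is high in Lamp5 or Ndnf subclusters and in Vip subcluster 1.

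In the excitatory class every named subtype held little Erbb4, between 78.5 and 238 CPM in library 1 and between 83.2 and 203 CPM in library 2. One unnamed group stood apart at 2825 CPM (2725 to 2927) in library 1 and 2372 CPM (2259.5 to 2488) in library 2. Its 153 and 104 nuclei had Baiap3, Meis1, Ebf1, Tacr1 and Erbb4 itself among their 10 leading genes. Nuclei within it spread widely, with a median of 939.9 and 588 CPM and a 95th percentile of 13380.5 and 12616 CPM. It took no subtype name because its marker score was low.

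The Drd1 type held 353 and 546 CPM of Erbb4 and the Drd2 type 381 and 302 CPM. The order of these types changed between libraries. A Drd2-named subcluster led by Alk and Sema5b (number 5) had 1159.7 and 3322 CPM in 39 and 7 nuclei. An unnamed striatal subcluster led by Nxph1, a gene on the interneuron marker list, held 1087 and 1198 CPM (30 and 17 nuclei). Its median depth of 10858 UMIs was above that of the class, and the part of doublets in it was not tested.

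Along the oligodendrocyte lineage, whose precursors and myelinating cells respond to neuregulins in culture, Erbb4 was present at each stage. Precursors held 2945 CPM (2801 to 3095) in library 1 and 3100.3 CPM (2956 to 3250.3) in library 2, the newly formed oligodendrocytes marked by Bcas1 and Enpp6 2316 and 2293 CPM, and mature oligodendrocytes 1486 CPM (1430.0 to 1544) in library 1 and 3182 CPM (3081 to 3285) in library 2. The newly formed cells were few, 3 and 42 nuclei. After thinning, 95.4% and 98.1% of precursors and 83.7% and 92.1% of oligodendrocytes had a UMI of Erbb4. A small group of precursors led by the cell cycle genes Top2a and Aspm held 4413 and 3786 CPM, from 1 and 13 nuclei.

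Erbb4 in oligodendrocytes stood apart between the libraries, at 2.14 (2.04 to 2.25) times its library 1 level in library 2. At a finer clustering, oligodendrocytes fell into cluster 17, with 26 and 390 nuclei, and cluster 3, with 869 and 35 nuclei. Erbb4 was 2439 and 3238 CPM in the first and 1448 and 1746 CPM in the second. Both libraries therefore had the higher level in the first cluster, which held most oligodendrocytes of library 2. As a check on free RNA, the ratio to inhibitory neurons was 0.198 and 0.363. The 8 interneuron markers (Gad1, Gad2, Slc32a1, Dlx6os1, Adarb2, Lhx6, Kcnip1 and Nxph1) had median ratios of 0.127 and 0.0810 there and highest ratios of 0.303 and 0.224. Erbb4 lay within their range in library 1 and above all 8 in library 2. In precursors its ratio was 0.393 and 0.354, above the medians of 0.210 and 0.221 and below the 1.06 and 0.972 of Nxph1. Precursors thus held about as much Nxph1 as inhibitory neurons, so that upper end of the range cannot measure free RNA there. The part of free RNA in the Erbb4 of precursors was not tested.

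Erbb3, the receptor with little kinase activity of its own, was found mainly in the same lineage. Oligodendrocytes held 61.1 CPM (50.1 to 73.7) in library 1 and 58.5 CPM (45.6 to 74.1) in library 2, from 108 and 69 UMIs. Precursors held 41.5 CPM (26.0 to 62.8) in library 1 and 16.2 CPM (7.41 to 30.8) in library 2, with intervals that overlapped those of oligodendrocytes in library 1 and not in library 2. Newly formed oligodendrocytes had 0 UMIs in both libraries, which at 3 UMIs allows up to 302 CPM for the 3 nuclei of library 1 and 12.9 CPM for library 2. None of the other 8 compared classes exceeded 6.67 CPM. After thinning, 8.97% and 5.98% of oligodendrocytes and 6.87% and 1.92% of precursors had a UMI of Erbb3, against 0.0905% and 0.113% of excitatory neurons.

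Per 100 kb of span the short gene Erbb3 was not minor in this lineage. Oligodendrocytes held 276 and 265 CPM of Erbb3 and 138 and 296 CPM of Erbb4 per 100 kb. In precursors the values were 188 and 73.2 CPM for Erbb3 and 274 and 288 CPM for Erbb4. Between libraries the Erbb3 level of oligodendrocytes was 0.959 (0.698 to 1.31) times that of library 1, a ratio whose interval holds 1, unlike that of Erbb4.

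**Figure D5:**
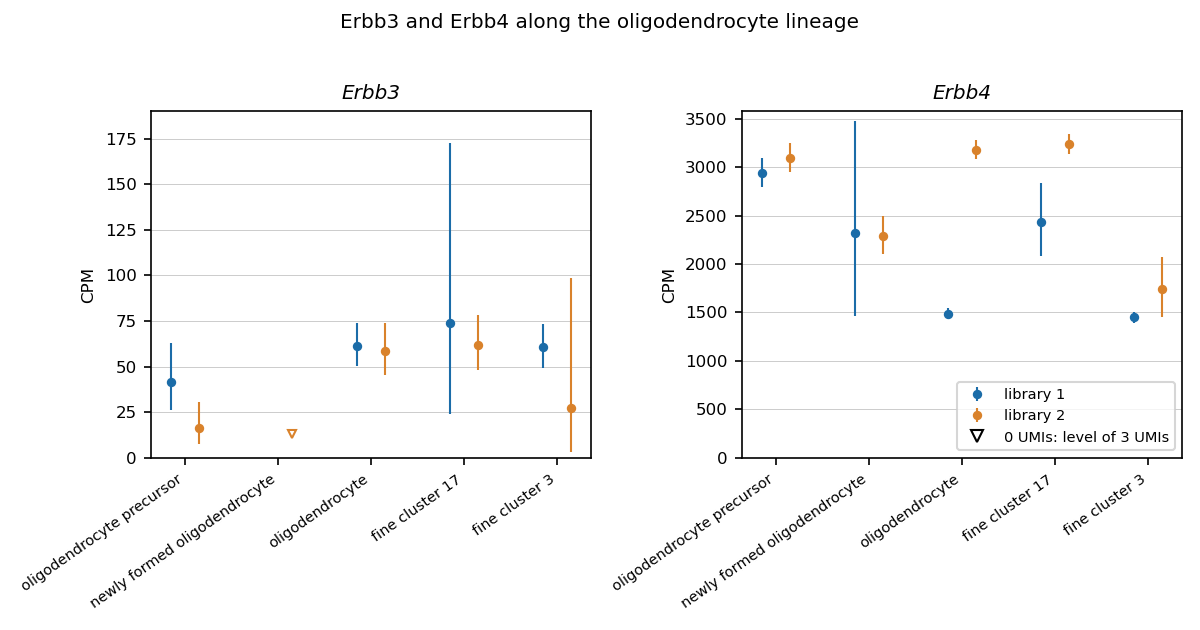
Erbb3 (left) and Erbb4 (right) in CPM on linear axes with 95% Poisson intervals, in oligodendrocyte precursors, newly formed and mature oligodendrocytes and the 2 fine clusters of mature oligodendrocytes. An open triangle marks 0 UMIs at the level that 3 UMIs would give, which for newly formed oligodendrocytes of library 1 lies above the axis. Erbb4 is higher in fine cluster 17 than in fine cluster 3 in each library, and Erbb3 of oligodendrocytes is near 60 CPM in both.

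In vascular and border classes Erbb4 was low but not even. The endothelial cluster with Slco1a4 and Flt1 among its leading genes, held 309 CPM (264 to 359) in library 1 and 249.5 CPM (217 to 285) in library 2. The smaller endothelial cluster, led by Bmx, Eln and Fbln5, genes of arterial vessels, held 1139.8 CPM (869.8 to 1467) in library 1 and 859 CPM (735 to 997) in library 2, from 18 and 63 nuclei. The ratio of Erbb4 to its inhibitory level over all endothelial nuclei, 0.0508 and 0.0418, was below the medians of the 8 interneuron markers, 0.0787 and 0.0755. The part of free RNA in the difference between these clusters was not tested. Ependymal or choroid plexus nuclei held 2740.2 and 298 CPM from 15 and 29 nuclei, too few to compare, and an unnamed cluster led by the choroid plexus genes Otx2 and Clic6 held 1732 and 1647 CPM from 23 and 13 nuclei.

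Egfr, the receptor for EGF and TGF-alpha, was found in fibroblasts, astrocytes and 2 interneuron subtypes. Fibroblasts held 431 CPM (382 to 484) in library 1 and 585 CPM (537 to 636) in library 2, and astrocytes 303 CPM (272 to 336) in library 1 and 261 CPM (234 to 291) in library 2. Inhibitory neurons held 118 and 130.0 CPM, and every other compared class was under 50 CPM. Ependymal or choroid plexus nuclei, too few to compare, had 0 and 16 UMIs at 0 and 122 CPM. Pericytes or smooth muscle had 46.7 and 43.5 CPM, microglia 29.0 and 18.1 CPM and endothelial nuclei 19.7 and 19.0 CPM, with overlapping intervals. Oligodendrocyte precursors, oligodendrocytes and striatal projection neurons held 13.2 and 10.8 CPM, 8.48 and 12.7 CPM and 10.8 and 4.88 CPM in this order. Excitatory neurons had 3.75 and 3.97 CPM.

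In fibroblasts and astrocytes Egfr was higher than in inhibitory neurons, while all 8 interneuron markers were lower there. The level of Egfr was 3.64 and 4.50 times that of inhibitory neurons in fibroblasts and 2.56 and 2.01 times in astrocytes, where the highest ratio among the 8 markers was 0.223 and 0.201 in fibroblasts and 0.237 and 0.230 in astrocytes. After thinning to 1500 UMIs, 39.9% and 38.6% of fibroblasts and 34.6% and 26.9% of astrocytes had a UMI of Egfr, against 0.430% and 0.428% of excitatory neurons. Before thinning the shares were 56.7% and 57.9% in fibroblasts, 47.6% and 44.6% in astrocytes and 2.83% and 3.16% in excitatory neurons. Median depths were 2938 and 3370.0 UMIs in fibroblasts and 2551 and 2885 in astrocytes, below those of excitatory neurons. Fibroblasts were not uniform: cluster 21, led by Ranbp3l and Slc6a13, held 285 and 230.5 CPM and cluster 22, led by Slc47a1 and Bnc2, held 626 and 947 CPM.

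Egfr split the interneurons along other lines than Erbb4. Lamp5 or Ndnf interneurons held 457 CPM (410.2 to 508) in library 1 and 533 CPM (481 to 589) in library 2, and Vip interneurons 211 and 213 CPM. The remaining 13 neuron subtypes were far lower, and dentate granule cells were the highest of them at 11.7 and 10.4 CPM. Pvalb interneurons, which had the most Erbb4, held 8.64 and 6.43 CPM of Egfr. After thinning, 52.9% and 53.6% of Lamp5 or Ndnf and 19.9% and 21.6% of Vip interneurons had a UMI of Egfr, against 0.935% and 1.63% of Pvalb interneurons.

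The Vip level was an average of unlike nuclei. The subcluster led by Vip, Crh and Tac2 (number 1, 86 and 57 nuclei) held 423 CPM (371 to 481) in library 1 and 454 CPM (382 to 535) in library 2. The subcluster led by Megf10, Frem1, Htr3a and Cnr1 (number 7, 49 and 41 nuclei) held 4.02 and 3.18 CPM, from 2 and 1 UMIs. At a clustering resolution of 2 the level of Vip interneurons was 416 and 454 CPM. An unnamed subcluster led by Megf11 and Gpr83 (number 17) had the highest level, 777 and 894 CPM, from 12 and 6 nuclei, and Egfr was among its 10 leading genes. The antisense gene Egfros, which overlaps Egfr, had a level of 4.58 and 57.8 CPM in fibroblasts, where it differed more between the libraries than Egfr did.

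Erbb2, the partner receptor, was at the limit of detection. Endothelial nuclei had 11 and 4 UMIs, or 18.0 CPM (9.01 to 32.3) in library 1 and 3.79 CPM (1.03 to 9.71) in library 2. The intervals of the libraries overlapped, but the library 2 level was 0.210 (0.0488 to 0.709) times that of library 1. The interval of that ratio does not hold 1, and the UMIs were too few for the comparison of libraries below. Excitatory neurons had 15 and 8 UMIs at 0.394 and 0.195 CPM, and astrocytes 2 and 5 UMIs. Microglia and oligodendrocyte precursors had 0 UMIs in both libraries, which at 3 UMIs allows up to 5.80 and 5.43 CPM in microglia and 5.66 and 5.40 CPM in precursors. Endothelial nuclei stood above excitatory neurons with intervals apart in both libraries, and no full order of the classes was detectable at this depth. The protein-coding gene Mien1 overlaps Erbb2 on the other strand and had 565 and 660 UMIs.

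Set beside each other, ligand and receptor genes led in different classes. Per 100 kb of span, excitatory neurons held 546 and 668 CPM of Nrg3 and 21.3 and 19.9 CPM of Erbb4. Inhibitory neurons held 518 and 600.1 CPM of Nrg3, 697 and 814 CPM of Erbb4 and 71.3 and 78.3 CPM of Egfr. Striatal projection neurons held 689 and 672 CPM of Nrg1 and 262 and 244 CPM of Nrg2 against 42.0 and 49.2 CPM of Erbb4. Fibroblasts held 259.6 and 352 CPM of Egfr and astrocytes 183 and 158 CPM. Of the neuron classes, inhibitory neurons thus held the most Erbb4 and the second highest Nrg3.

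The genes around the receptors were described from lists by the class in which each had its highest level. Of 8 other ligands of the EGF family, 7 were in the matrix and 5 had at least 20 UMIs. Tgfa, an EGFR ligand, was highest in oligodendrocyte precursors at 168 and 109.8 CPM, the leading class of 7.11% and 7.93% of measured genes. Striatal projection neurons followed at 135 and 98.7 CPM, inside the precursor interval in both libraries. The Egfr-rich astrocytes were low in Tgfa, at 23.0 and 18.5 CPM. Hbegf, which binds EGFR and ErbB4, was low throughout, with endothelial nuclei at 16.4 and 7.58 CPM and precursors at 3.77 and 12.6 CPM. Nrg4 was highest in inhibitory neurons at 10.8 and 8.16 CPM, with excitatory neurons at 6.25 CPM inside their interval in library 2. Egf was highest in astrocytes at 12.8 and 8.48 CPM. Fibroblasts held 7.64 and 8.40 CPM of Egf, inside the astrocyte interval in both libraries.

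Among 6 genes of ligand shedding and cleavage, 0 peaked in one of the 3 neuron classes in either library, where 17% and 15% of measured genes did, so a count of 0 among 6 is near the background. Oligodendrocytes had the highest level of Adam19 and Bace1 in both libraries. Bace1, whose protease cleaves Nrg1 and Nrg3, held 55.4 and 84.8 CPM there. In library 2 the next classes lay inside the oligodendrocyte intervals: fibroblasts at 57.8 CPM of Adam19 and pericytes or smooth muscle at 69.6 CPM of Bace1. Adam10 was highest in endothelial nuclei at 259 and 258 CPM.

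Of 10 adaptor and scaffold genes, 4 peaked in oligodendrocytes in both libraries, where the background was 8.27% and 8.62%. These were the docking protein gene Gab1 at 542 and 675 CPM, the phosphatase gene Ptpn11 at 157 and 119.6 CPM, Erbin, whose protein binds ErbB2, at 508 and 855 CPM, and the scaffold gene Magi2 at 6376 and 5832 CPM. Dlg4, which encodes the postsynaptic scaffold PSD-95 that binds ErbB4, peaked in striatal projection neurons at 116 and 111 CPM. The Erbin level of oligodendrocytes was higher in library 2, as was that of Erbb4.

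Of 16 genes of downstream kinases and Ras, 0 peaked in a neuron class in either library, beside the same background of 17% and 15%. Fyn, a Src-family kinase known in myelination, was highest in oligodendrocyte precursors at 302 and 398 CPM. Pik3r1, a regulatory subunit of PI3 kinase, held 349.9 and 316 CPM in astrocytes. Microglia held 325 and 290 CPM of Pik3r1, inside the astrocyte interval in both libraries.

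Of 14 feedback inhibitors, 5 in library 1 and 4 in library 2 peaked in astrocytes or fibroblasts, the leading classes of 22.9% and 23.3% of measured genes. Errfi1, which binds and inhibits EGFR, held 529 and 579 CPM in fibroblasts against 14.1 and 10.1 CPM in excitatory neurons. Lrig1, which promotes the breakdown of ErbB receptors, held 132 and 125 CPM in astrocytes. Pericytes or smooth muscle held 127 and 109 CPM of Lrig1, inside the astrocyte interval in both libraries. Spred1, an inhibitor of Ras signalling, was highest in astrocytes at 271 and 248 CPM. Microglia at 243 CPM in library 1 and oligodendrocyte precursors at 247 CPM in library 2 lay inside the astrocyte intervals. Its relative Spred2 was highest in excitatory neurons at 252 and 212 CPM. Rnf41, whose product marks ErbB3 for degradation, was highest in microglia at 61.8 and 45.3 CPM, the leading class of 14.1% and 16.7% of measured genes. Astrocytes held 58.0 and 31.6 CPM of Rnf41, inside the microglial interval in both libraries.

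Genes with the most similar pattern were ranked for 6 members by Pearson's r of log2(CPM + 1) across the 10 classes, among 12616 genes and by the lower of the 2 libraries. The classes come from the same libraries and differ in depth, so these values only describe. Nrg1 was nearest to Pcsk2 (r = 0.975 and 0.975), Ano3 and Cacna1e. Nrg2 was nearest to Shisa9 (0.957 and 0.976), Gm5441 and Unc79, and Nrg3 to Clstn2 (0.968 and 0.959), its own antisense gene Nrg3os and Rims1. Erbb3 was nearest to Plxnb3 (0.939 and 0.980), Ninj2 and Abhd17b, and Erbb4 to Grik1 (0.882 and 0.831), Gm38505 and Npas1. Egfr was nearest to Uqcc1 (0.927 and 0.940), Nfyc and Gm29683. Erbb2 had too few UMIs to be ranked.

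Between the libraries the members were mostly alike. Of 51 levels in classes, 2 were over 1.5 times higher in library 2 with intervals apart and 0 were lower. Over all genes tested in these classes, 4.87% of levels were higher and 7.97% lower by the same rule. The 2 were Erbb4 in oligodendrocytes, described above, where 4.21% of tested genes were higher, and Erbb4 in microglia at 1.59 (1.36 to 1.85) times, where 2.56% were. With equal weight per nucleus the microglia held 519.8 and 551 CPM, so the libraries lay closer together on that scale, and 56.5% and 58.7% of them had a UMI of Erbb4. In microglia the 8 interneuron markers had median ratios to inhibitory neurons of 0.106 and 0.165, also higher in library 2, and their part in the Erbb4 value was not tested.

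In neuron subtypes, 5 of 68 levels were higher in library 2 by this rule and 1 was lower, beside 4.19% and 9.81% over all genes tested. Layer 5 extratelencephalic neurons had more Nrg1, 1.55 (1.49 to 1.61) times, and more Erbb4, 2.56 (2.18 to 3.02) times, where 4.66% of tested genes were higher. Sst interneurons had 1.59 (1.48 to 1.72) times the Nrg1 and 2.24 (2.06 to 2.44) times the Erbb4, where 3.99% were higher. The direction for Erbb4 in Sst interneurons depended on the naming: library 2 was lower with doublets kept (2833 and 2462 CPM) and without the subtype score limit, an alternative added after seeing the data (2879 and 2665 CPM). The Drd1 type had 1.55 (1.35 to 1.77) times the Erbb4, where 3.01% were higher. Dentate granule cells had 0.506 (0.482 to 0.532) times the Nrg1 of library 1, where 8.88% of tested genes were lower. Nrg2, Nrg3 and Egfr did not differ by this rule in any class or subtype in which they were tested. With 1 library per age and no map between them, age, pool and library cannot be told apart in these ratios.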

How the data were processed

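Nuclei of both samples were deposited by the authors as 1 sparse matrix of raw UMI counts per gene and barcode, 118655443 UMIs in all, made with Cell Ranger 3.1.0 per the file headers. The submitters' processing notes name Cell Ranger 2.0.1, Seurat 3.1, R 4.0.2 and mm10. Gene annotation, intron handling and strand use are not stated in the sources used. Of 30905 gene IDs, 30766 matched GENCODE vM21, which gave spans and gene types.

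Barcodes with at least 200 genes, at most 5% mitochondrial UMIs and a Scrublet doublet score under 0.2 were kept (the automatic score threshold marked almost no barcode and was not used). Counts were scaled to 10000, log-transformed and clustered with scanpy 1.11.5 and leidenalg 0.10.2 (2000 variable genes without the members and pathway genes, 30 components, 15 neighbours, resolution 1, seed 1). Python 3.11.15, numpy 2.4.6, scipy 1.17.1, scikit-learn 1.9.0, umap-learn 0.5.12 and igraph 0.11.9 were used. Clusters were named from marker lists with thresholds set after the clusters were seen: at least 3 markers at 0.25 or more of their maximum, a mean of at least 0.33, a lead of 1.2 times and, for subtypes with no own marker among the 10 leading genes, a score of 0.45. Clusters under 0.5 of the median UMI count took no name if no own marker was among their 10 leading genes.

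UMIs were summed per class and library, with exact Poisson intervals for CPM. The unknown link from barcode suffix to age makes the matrix 1 sample, so no test was made. Thinning took each nucleus to 1500 UMIs. The named genes were all members, the 2 genes of each pathway list with the highest CPM in a class (some are not reported here), and the 3 genes most like each member with at least 100 UMIs. Other pathway genes, subclusters and their leading genes were picked after their values were seen. The members and lists were chosen with earlier results of these data known. Alternatives covered the doublet, mitochondrial and low-UMI limits, the resolution, the variable genes, the weight per nucleus, the depth and the pseudocount. The call of the highest class and the coverage of the Poisson intervals were tested on simulated class sums. These sums were drawn from set profiles with no spread between nuclei and no free RNA, so they check counting error alone. Naming and ratios were not tested in this way.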

Additional observations from a re-analysis of the deposited data

How the results depend on the processing

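Alternatives were computed for 36 levels of members, giving 302 values, of which 62 moved by more than their counting interval and 7 by more than 1.5 times. The cause of these moves was not tested. With doublets kept, Erbb4 of Sst interneurons was 2833 and 2462 CPM, of inhibitory neurons 7224 and 8329 CPM and of precursors in library 1 3209 CPM. Egfr was then 371 CPM in fibroblasts of library 1, 256 and 199.7 CPM in astrocytes and 371 and 624 CPM in Lamp5 or Ndnf interneurons, and Nrg3 of the Drd2 type in library 1 was 1442 CPM. At a doublet limit of 0.15, Erbb4 was 904 CPM in Sst interneurons of library 2, 9003 CPM in inhibitory neurons of library 2 and 3150.3 CPM in precursors of library 1. The Drd2 type then held 7912 and 8096 CPM of Nrg1 and 1300.0 and 1585 CPM of Nrg3.

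With no mitochondrial limit, Nrg3 of excitatory neurons was 6131 and 7479 CPM, Egfr of fibroblasts 489 and 651 CPM and Egfr of Lamp5 or Ndnf interneurons 399 and 597 CPM. Erbb4 was 13068 CPM in Pvalb and 803 CPM in Sst interneurons of library 2, and the Drd2 type of library 1 held 7926 CPM of Nrg1 and 1295 CPM of Nrg3. No near-projecting group was named under this setting, so its Nrg3 has no value there. At resolution 2, Egfr of Vip interneurons was 416 and 454 CPM, Erbb4 of Pvalb interneurons 10955 and 13463 CPM, and in library 1 Erbb4 of Sst interneurons 706 CPM and Nrg3 of excitatory neurons 6066 CPM. With a low-UMI limit of 0.33, Nrg3 of excitatory neurons was 5989 and 7267 CPM. With members eligible as variable genes, Erbb4 of Pvalb interneurons in library 2 was 13535 CPM. Without the subtype score limit, a setting added after seeing the data, Erbb4 was 2879 and 2665 CPM in Sst interneurons and 11443 CPM in Pvalb interneurons of library 1.

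With equal weight per nucleus, Nrg3 of excitatory neurons was 5919 and 7348 CPM and Nrg1 of the Drd2 type 7290.1 and 7545 CPM. Library 2 then held 9196 CPM of Erbb4 in inhibitory neurons, 2793 CPM in oligodendrocytes and 1086 CPM in Sst interneurons, 470.1 CPM of Nrg2 in dentate granule cells and 1978 CPM of Nrg3 in the Drd2 type, and Egfr of Vip interneurons in library 1 was 243 CPM. Thinned to 1500 UMIs, Nrg3 of excitatory neurons was 5915 and 7332 CPM, Nrg1 of the Drd2 type 7086 and 7313 CPM, Egfr of Lamp5 or Ndnf interneurons 545 and 598 CPM and Erbb4 of Sst interneurons 772 and 1135 CPM. In library 2 it gave 6888 CPM of Nrg1 in striatal projection neurons, 44.7 CPM of Erbb3 in oligodendrocytes, and 9187 CPM and 2805 CPM of Erbb4 in inhibitory neurons and oligodendrocytes. With log2(CPM + 10), 14 of the 18 genes most like a member were the same.

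No paired analysis was possible because the design has 1 library per age and no test was made. Depth limits Erbb2 and, outside the oligodendrocyte lineage, Erbb3. Intervals cover counting error only and not differences between mice, which were pooled.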

Other observations

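Antisense genes that overlap members differed between the libraries more than the members did. Over all kept nuclei Nrg3os had 4849 and 17394 UMIs in library 1 and library 2, Gm20642 had 2865 and 15364, Gm20641 had 187 and 986, Egfros had 18 and 165, and Gm26578, which overlaps Nrg1, had 17 and 84. This was not particular to these loci. In excitatory neurons, 743 of 1422 antisense-annotated genes (52.3%) were over 1.5 times higher in library 2 with intervals apart and 83 (5.84%) were lower, with a median log2 ratio of library 2 to library 1 of 1.07. Of 14622 protein-coding genes, 831 (5.68%) were higher and 2873 (19.6%) lower, with a median log2 ratio of -0.25. The members' own ratios were computed without any correction for this difference.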
